A study of Mus musculus with 9 samples.

Results

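The genes described here are 7 subunits of the nicotinic acetylcholine receptor, out of 21899 genes counted in Neuro-2a (N2a) cells, a mouse neuroblastoma line: Chrna3, Chrna5, Chrnb4, Chrna4, Chrna7, Chrnb2 and Chrnb1. They were chosen from measured values of these same libraries, because Chrna3 was far higher in Arf1-deficient than in control cells, and the other subunits were added by name as its family. Their differences between Arf1-deficient and control cells are therefore given as a description with no test, and the test reported for them compares the 2 hairpins against Arf1 with each other. The libraries fall into 3 groups of 3. The control group, shlucif, carried a short hairpin against luciferase, and the shArf1-1 and shArf1-2 groups carried different hairpins against Arf1, a small GTPase that recruits coat proteins to Golgi membranes. The hairpins were delivered by lentivirus from a puromycin-selectable vector, the labels give the genotypes as luciferase knockdown and Arf1 knockdown with no further treatment, and the 6 libraries with an Arf1 hairpin are called Arf1-deficient below. Nothing in the sources used here says whether the 3 libraries of a group came from separate cultures, so p-values measure the spread between these libraries, which may be technical.

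Nicotinic receptors are pentameric cation channels opened by acetylcholine. Subunits encoded by Chrna3 and Chrnb4, often joined by Chrna5, form the receptor that carries fast transmission in autonomic ganglia, where sympathetic neurons, the lineage neuroblastoma derives from, receive their input. Chrna4 and Chrnb2 form the most abundant receptor type of the brain, Chrna7 forms calcium-permeable receptors of identical subunits, and Chrnb1 encodes the beta subunit of the receptor at the muscle end plate. Chrna5, Chrna3 and Chrnb4 lie side by side in the genome, and the other members are on separate chromosomes.

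The neighbouring genes span 67900 bases of chromosome 9 (GRCm38, GENCODE M21). Chrna5 (ENSMUSG00000035594) occupies chr9:54980880-55007779 on the plus strand, Chrna3 (ENSMUSG00000032303) chr9:55010111-55026562 on the minus strand and Chrnb4 (ENSMUSG00000035200) chr9:55028154-55048779 on the minus strand. Chrna5 and Chrna3 point towards each other with 2331 bases between their ends, and 1591 bases separate the start of Chrna3 from the end of Chrnb4. The 250 bases before the annotated start are shown for Chrna3 and Chrna5, the members of the cluster with enough reads to be fitted, and for Chrnb2, the most abundant subunit in control cells, to let the promoters of genes that differed 12.1-fold, 2.81-fold and 1.68-fold be read side by side. They are RefSeq sequences of build GRCm38.p6, written in the direction of transcription, and capitals mark a GC box (GGGCGG or its reverse complement CCGCCC).
Chrna3, chr9:55026563-55026812, minus strand: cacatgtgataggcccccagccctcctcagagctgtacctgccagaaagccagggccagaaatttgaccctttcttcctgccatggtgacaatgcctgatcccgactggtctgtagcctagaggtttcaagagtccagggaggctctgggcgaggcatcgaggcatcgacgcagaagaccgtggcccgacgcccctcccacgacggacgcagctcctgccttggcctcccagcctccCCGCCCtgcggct
Chrna5, chr9:54980630-54980879, plus strand: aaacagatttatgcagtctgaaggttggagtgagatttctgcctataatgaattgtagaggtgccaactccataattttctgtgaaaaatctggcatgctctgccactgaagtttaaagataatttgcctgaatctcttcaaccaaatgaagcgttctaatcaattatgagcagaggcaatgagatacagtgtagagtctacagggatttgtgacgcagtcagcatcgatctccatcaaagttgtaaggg
Chrnb2, chr3:89764633-89764882, minus strand: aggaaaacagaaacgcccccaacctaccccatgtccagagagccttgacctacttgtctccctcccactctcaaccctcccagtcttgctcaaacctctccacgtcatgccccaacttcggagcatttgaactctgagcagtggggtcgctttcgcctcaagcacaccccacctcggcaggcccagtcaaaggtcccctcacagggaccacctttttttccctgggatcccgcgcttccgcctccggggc
The Chrna3 stretch holds a single GC box, which begins 13 bases before the start on the minus strand of the gene. No GC box lies in the Chrna5 stretch shown, whereas a separate RefSeq start of the same gene, with its 300-base window at chr9:54981238-54981537, has 4. In Chrnb2 a GC box begins 4 bases before the start and runs past the end of the stretch shown.

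All 7 members had a RefSeq promoter entry of 300 bases, 250 before and 50 after the start, and Chrna5 had 2 entries. A GC box was found on either strand in 6 of these 8 windows, against 35.7% of all 32851 promoter windows, and the Chrnb4 window and the Chrna5 window shown lacked it. The E-box CAGCTG was found in the Chrnb4 window alone, beginning 14 bases before its RefSeq start, against 16.3% of all windows. TATAAA occurred in the Chrnb1 window alone, against 13.6% of all. The cyclic AMP response element TGACGTCA (1.79% of all windows), the AP-1 element TGAGTCA (5.20%) and the octamer ATGCAAAT (1.74%) were found in none of the 8 on either strand. The Chrna3 window was 64.3% G and C with 18 CpG pairs and that of Chrnb4 63.0% with 14, against medians of 52.7% and 7 over all windows, while the Chrna5 window shown had 41.3% and 5 and its second window 65.0% and 25. No motif of this set was shared by Chrna5 as shown, Chrna3 and Chrnb4.

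Library totals ran from 11182479 to 15594615 counts, and 12448 genes had enough reads to be fitted. Arf1 itself fell with both hairpins, from 324 ± 6.72 FPKM (reads scaled by gene length and library total, mean ± SD, n = 3) in shlucif to 128 ± 1.73 with shArf1-1 and 165 ± 6.92 with shArf1-2. The log2 fold change was -1.21 (SE 0.0898, edgeR quasi-likelihood test, Benjamini-Hochberg adjusted p = 6.05e-08). Arf1 was higher with shArf1-2 than with shArf1-1 by 0.34 on the log2 scale (SE 0.0513, adjusted p = 1.16e-05 by edgeR). Of 16 markers of sympathetic neuroblastoma and neurons, 15 had enough reads to be fitted. Their summed level was 2213 to 2270 library-scaled counts (counts per unit of library size, CPM) in shlucif, 3099 to 3399 with shArf1-1 and 2948 to 3178 with shArf1-2. Those values go with the neuroblast label, although Th, which encodes the rate-limiting enzyme of catecholamine synthesis, had at most 19 counts in any library. The shlucif libraries stood apart in markers of macrophages and microglia, whose 16 genes had a summed level of 200.0 to 253 CPM there, against 0.715 to 1.27 CPM with either hairpin to Arf1.

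Chrna3, the ligand-binding subunit of the ganglionic receptor, differed most among the members that could be fitted. Its counts in shlucif were 228, 191 and 198, with shArf1-1 2717, 2603 and 3326, and with shArf1-2 2290, 2194 and 2387. Every Arf1-deficient library was above every control library, and every shArf1-1 library was above every shArf1-2 library. On the FPKM scale the levels were 2.87 ± 0.236, 42.0 ± 1.96 and 30.9 ± 1.18 (mean ± SD, n = 3 each). The log2 fold change against shlucif was 3.60 (SE 0.184), a 12.1-fold higher level, which ranked 9 among the 12448 fitted genes by size of increase. With shArf1-1 alone it was 3.81 (SE 0.0738) and with shArf1-2 alone 3.35 (SE 0.0740), and these estimates share the shlucif libraries. Among genes with at least 1 count in a group, the mean FPKM of Chrna3 stood at the 43.8th percentile in shlucif, the 92.2nd with shArf1-1 and the 88.8th with shArf1-2.

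**Figure D1:**
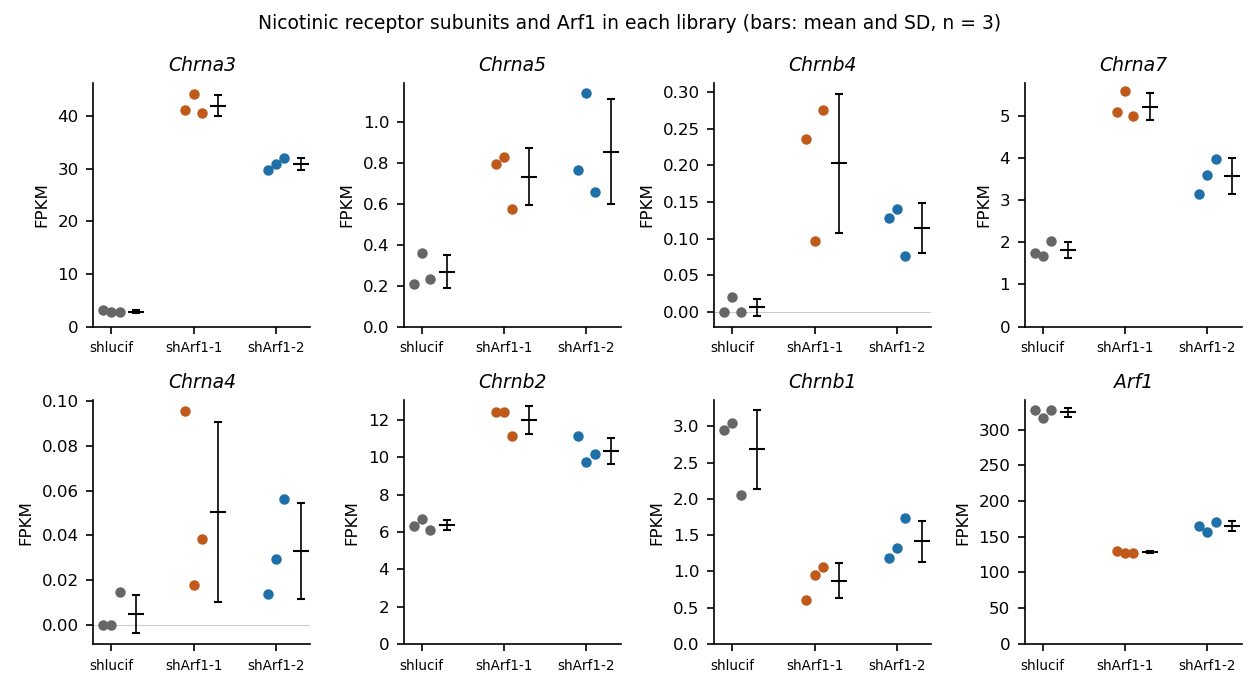
FPKM of the 7 nicotinic subunits and of Arf1 (vertical axes, each with its own linear scale) in the shlucif, shArf1-1 and shArf1-2 groups, with 1 point per library and a bar for mean and SD (n = 3). Chrna3 lies between 2.71 and 3.14 FPKM in shlucif against 29.7 to 44.2 in the libraries with an Arf1 hairpin, and Chrnb1 is the member that lies lower in all 6 of them.

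Chrna5, an accessory subunit that joins receptors formed by other subunits, lies next to Chrna3 and differed less. It had 9, 15 and 10 counts in shlucif, 31, 29 and 28 with shArf1-1 and 35, 48 and 29 with shArf1-2. The Arf1-deficient libraries were all above the controls, while the ranges of the hairpin groups overlapped. Chrna5 had the reads to be fitted only through the Arf1-deficient libraries. It was not fitted when at least 10 counts were required in every library. Its FPKM was 0.267 ± 0.0801 in shlucif, 0.732 ± 0.138 with shArf1-1 and 0.853 ± 0.255 with shArf1-2, and its log2 fold change was 1.49 (SE 0.317). At a mean level of 0.267 FPKM it stood at the 22.5th percentile of the genes with a count in shlucif.

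Chrnb4, the beta partner of Chrna3 in ganglia, was nearly without reads in control cells. It had 0, 1 and 0 counts in shlucif, 11, 4 and 16 with shArf1-1 and 7, 7 and 4 with shArf1-2. Each Arf1-deficient library had more counts than any control library, but the gene did not pass the low-count filter needed for a fit. Relative to library totals, the 49 counts against 1 gave a ratio of 24.5, with an exact 95% counting interval from 4.20 to 987 that covers counting error only. Even with shArf1-1 its level was 0.203 ± 0.0943 FPKM, so that Chrna3 was 147 to 460 times as abundant per length in those libraries and 222 to 422 times in the shArf1-2 libraries.

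Within the cluster, Chrna3 outweighed Chrna5 by more in the Arf1-deficient libraries than in the controls. The FPKM of Chrna3 was 7.56 to 15.0 times that of Chrna5 in shlucif, 52.0 to 70.5 times with shArf1-1 and 27.1 to 48.9 times with shArf1-2. These 3 ranges did not overlap, but Chrna3 was chosen for its rise against shlucif, where Chrna5 had 9 to 15 counts. The reference annotates an antisense transcript, Gm47877, inside Chrnb4, but it shares no exonic base with it. Transcripts of Chrna3 and Chrnb4 share 6 sequences of 31 bases, which may overlap each other. Reads from them could be split between the genes, and no other pair of members shares any such sequence. In Arf1-deficient libraries Chrnb4 had 4 to 16 counts beside 2194 to 3326 of Chrna3. The part of shared reads in the Chrnb4 counts was not tested.

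Chrna7 encodes the subunit of the homomeric, calcium-permeable receptor. It had 108, 101 and 125 counts in shlucif, 287, 281 and 350 with shArf1-1 and 207, 218 and 254 with shArf1-2. The 3 groups did not overlap in FPKM, at 1.82 ± 0.192, 5.22 ± 0.318 and 3.57 ± 0.424. The log2 fold change of Arf1-deficient cells against shlucif was 1.21 (SE 0.178), or 2.31-fold. The ratio of Chrna3 to Chrna7 in FPKM was 1.36 to 1.81 in shlucif, 7.93 to 8.13 with shArf1-1 and 8.04 to 9.47 with shArf1-2, and here the hairpin groups overlapped.

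Chrna4, the ligand-binding subunit of the main brain receptor, was barely detected. Its counts were 0, 0 and 1 in shlucif, 6, 1 and 3 with shArf1-1 and 1, 2 and 4 with shArf1-2. The groups overlapped, and 17 counts against 1 gave a ratio of 8.50 with an exact 95% counting interval from 1.33 to 355.

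Chrnb2, the partner of Chrna4 in the brain and able to join other alpha subunits, was the most abundant member in control cells. It had 730, 750 and 699 counts in shlucif, 1303, 1163 and 1457 with shArf1-1 and 1366, 1101 and 1205 with shArf1-2. All 6 Arf1-deficient libraries were above the controls, at 12.0 ± 0.732 FPKM with shArf1-1 and 10.3 ± 0.700 with shArf1-2 against 6.38 ± 0.289. Its log2 fold change was 0.75 (SE 0.0829), or 1.68-fold, the smallest of the fitted members. Of its 8380 exonic bases, 1365 (16.3%) overlap exons of Adar on the opposite strand, and whether counting used strand is not given in the sources used here. Adar, which encodes an RNA-editing deaminase, stood at 13.1 ± 0.660 FPKM in shlucif, 13.8 ± 1.02 with shArf1-1 and 13.5 ± 0.685 with shArf1-2, a log2 difference of -0.01 (SE 0.0617, adjusted p = 0.934 by edgeR) whose sign changed with the scaling. Its counts overlapped between the groups, at 1369 to 1524 in shlucif, 1356 to 1647 with shArf1-1 and 1468 to 1638 with shArf1-2.

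Chrnb1, the beta subunit of the muscle receptor, went the other way. It had 103, 103 and 71 counts in shlucif, 19, 27 and 42 with shArf1-1 and 44, 45 and 62 with shArf1-2. All Arf1-deficient libraries were below all controls, at 0.873 ± 0.243 and 1.41 ± 0.283 FPKM against 2.68 ± 0.544. The log2 fold change was -1.28 (SE 0.236), or 2.44-fold lower.

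Of the 5 members that could be fitted, 4 had all Arf1-deficient libraries above all shlucif libraries in CPM, as did 27.9% of all fitted genes, and 1 had them all below, as did 30.1%. The members were chosen on this contrast, and nothing is read from these counts. Over all fitted genes, edgeR called 31.6% higher and 32.9% lower in Arf1-deficient cells at an adjusted p of 0.05. The median log2 fold change of all fitted genes was 0.003.

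**Figure D2:**
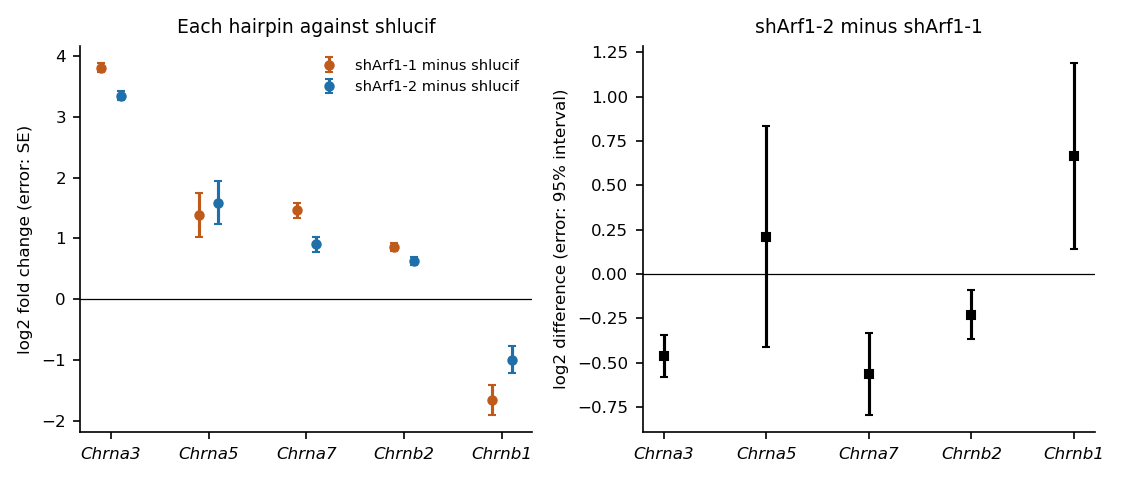
Log2 fold changes of the 5 fitted members. The left panel gives each hairpin against shlucif with its SE, and the right panel gives shArf1-2 minus shArf1-1 with its 95% interval. The estimates for Chrna3, Chrna7 and Chrnb2 lie below 0 in the right panel with their whole intervals, and that for Chrna5 spans 0.

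The comparison of the hairpins with each other is a contrast that the choice of members did not use, although it rests on the same Arf1-deficient libraries. Chrna3, Chrna7 and Chrnb2 were each lower with shArf1-2 than with shArf1-1, and no such difference was found for Chrna5. The log2 difference of Chrna3 was -0.46 (SE 0.0582, 95% interval -0.578 to -0.342, adjusted p = 6.79e-07 over all genes by edgeR), with all 3 shArf1-2 libraries below all 3 shArf1-1 libraries. Chrna7 differed by -0.56 (SE 0.114, interval -0.793 to -0.331, adjusted p = 0.000657 by edgeR), again with no overlap. For Chrnb2 the difference was -0.23 (SE 0.0675, interval -0.365 to -0.0913, adjusted p = 0.0189 by edgeR). That call was the least firm, since adjusted p in edgeR rose to 0.133 without shArf1-2 replicate 2, 0.108 without shArf1-1 replicate 1, 0.0714 without shArf1-2 replicate 3 and 0.0510 without shArf1-1 replicate 2. Chrna5 differed by 0.21 (SE 0.307, adjusted p = 0.717 by edgeR), and its interval from -0.412 to 0.834 includes the value found for Chrnb2 but not that for Chrna3 or Chrna7. At 28 to 48 counts a library, a difference of the size seen for Chrnb2 was not detectable. Chrnb1 was 0.66 higher with shArf1-2 (SE 0.258, interval 0.140 to 1.19), which missed the threshold (adjusted p = 0.0801 by edgeR). In all, 3 of the 5 fitted members passed, all of them lower with shArf1-2, where 14.4% of fitted genes passed in either direction and 7.46% were lower.

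The hairpin with the lower Arf1 level, shArf1-1, was the hairpin with the higher Chrna3, Chrna7 and Chrnb2. This order was common among genes that were higher in Arf1-deficient cells. Of the 582 genes called higher by at least 1 on the log2 scale, 400 (68.7%) had a smaller rise with shArf1-2. Their median difference was -0.12, beside 0 over all fitted genes. The test of the hairpin difference was passed by 96 of the 582, beside 14.4% of all fitted genes. Between hairpins, the within-library FPKM ratio of Chrna3 to Chrnb2 was 3.32 to 3.63 with shArf1-1 and 2.67 to 3.17 with shArf1-2. In a 2-sided exact permutation test of the log2 ratio p was 0.10 for Chrna3 to Chrnb2, 0.10 for Chrna3 to Chrna5 and 0.30 for Chrna3 to Chrna7, or 0.15, 0.15 and 0.30 after Benjamini-Hochberg adjustment over the 3 ratios, and 0.10 is the smallest p that 3 against 3 libraries allow.

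The make-up of the subunit transcripts differed with these levels. Summed over the 7 members, FPKM was 14.0 ± 0.699 in shlucif, 61.1 ± 2.80 with shArf1-1 and 47.2 ± 1.35 with shArf1-2. Without Chrna3 the sums were 11.2 ± 0.663, 19.1 ± 0.913 and 16.3 ± 0.336. Chrna3 made up 20.5% ± 1.63 of the sum in shlucif, 68.8% ± 0.509 with shArf1-1 and 65.4% ± 0.804 with shArf1-2. Chrnb2 went from 45.5% ± 1.28 to 19.7% ± 0.800 and 21.9% ± 1.93, although its own level was higher. Chrnb1 went from 19.0% ± 3.01 to 1.43% ± 0.415 and 2.98% ± 0.510. In shlucif the order by FPKM was Chrnb2, Chrna3, Chrnb1, Chrna7, Chrna5, Chrnb4 and Chrna4, where the ranges of Chrna3 and Chrnb1 overlapped, as did those of Chrnb4 and Chrna4. With either hairpin against Arf1 the order was Chrna3, Chrnb2, Chrna7, Chrnb1, Chrna5, Chrnb4 and Chrna4, and the ranges of Chrnb1 and Chrna5 overlapped with shArf1-1.

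**Figure D3:**
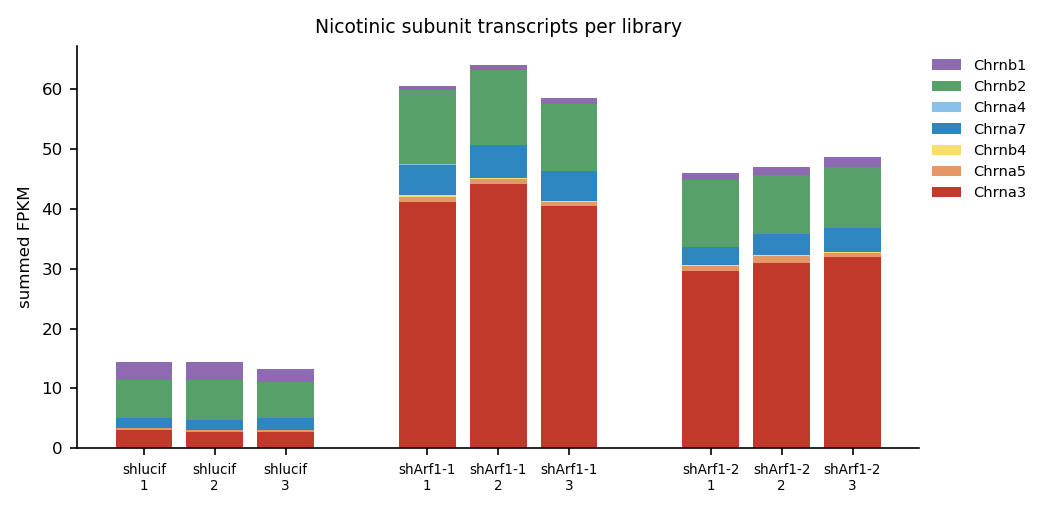
FPKM of the 7 subunits stacked for each of the 9 libraries, on a linear axis from 0. The total is 13.2 to 14.5 in shlucif, 58.6 to 64.1 with shArf1-1 and 46.0 to 48.7 with shArf1-2, and the Chrna3 segment is the one that fills most of the Arf1-deficient columns.

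The remaining 9 nicotinic subunit genes of the list had too few reads for a fit. Chrna6 and Chrnb3, which code for subunits of dopaminergic and visual pathways, had no count in any library. Chrna1, which encodes the ligand-binding partner of Chrnb1 in muscle, had 11, 7 and 7 counts in shlucif, 0, 3 and 1 with shArf1-1 and 3, 0 and 2 with shArf1-2. That is 25 counts against 9, a level 5.55-fold higher in shlucif with an exact 95% counting interval from 2.51 to 13.5. Chrnd, another muscle subunit, had 7 counts against 5, and its interval from 0.765 to 11.2 includes 1. Chrna9, a subunit of inner-ear hair cells, had at most 3 counts in any library.

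Of 7 genes that make, move or break down acetylcholine, 2 were fitted and both rose, where 31.6% of all fitted genes were called higher. Ache, which encodes the synaptic esterase, went from 6.34 ± 0.359 FPKM to 14.5 ± 0.247 with shArf1-1 and 13.4 ± 1.08 with shArf1-2 (log2 fold change 1.08, SE 0.0799, adjusted p = 8.50e-10 by edgeR). Prima1, which encodes its membrane anchor, went from 7.49 ± 0.915 to 20.1 ± 1.25 and 17.9 ± 0.504 (log2 fold change 1.28, SE 0.113, adjusted p = 9.68e-09 by edgeR). The genes for choline acetyltransferase and the vesicular and high-affinity transporters had at most 9 counts in a library. Of 5 muscarinic receptor genes 2 were fitted, and Chrm3, the receptor of smooth muscle and glands, rose from 0.106 ± 0.0344 FPKM to 0.417 ± 0.0852 and 0.551 ± 0.0788 (log2 fold change 2.12, SE 0.319, adjusted p = 1.00e-05 by edgeR). Chrm3 had 6 to 12 counts in shlucif and had the reads to be fitted only through the Arf1-deficient libraries. The count of risen muscarinic genes was 1, and 2 without shlucif replicate 1. It was 0 when at least 10 counts were required in every library, which left Chrm3 out.

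Of 17 genes for receptor assembly and its regulators, 9 were fitted, 3 rose and 4 fell, beside 31.6% of all fitted genes called higher and 32.9% called lower. Their median log2 fold change was 0.13. Both genes past an absolute log2 fold change of 1 fell. Ly6e, which encodes a lipid-anchored surface protein of the toxin-like family, went from 306 to 378 counts in shlucif to 1 to 5 in Arf1-deficient libraries (log2 fold change -6.73, SE 0.213, adjusted p = 3.68e-15 by edgeR). It had the reads to be fitted only through shlucif, as did Dok7. Dok7, which encodes an adaptor needed to cluster receptors at the muscle end plate, went from 69 to 96 counts to 3 to 11 (log2 fold change -3.52, SE 0.276, adjusted p = 1.81e-09 by edgeR). The count of risen genes in this list ranged from 1, without shlucif replicate 2, to 4 when single libraries were left out.

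Among the other channels of the Cys-loop family, the superfamily that nicotinic receptors belong to, 5 of 22 listed genes were fitted and 4 of them rose, beside 31.6% of all fitted genes, with a median of 0.56 on the log2 scale. The count was 3 when at least 10 counts were required in every library. Htr3b, a subunit of the serotonin-gated channel, went from 1.85 ± 0.229 FPKM to 4.26 ± 0.374 and 4.36 ± 0.553 (log2 fold change 1.15, SE 0.151, adjusted p = 1.79e-06 by edgeR). Gabra5, a subunit of GABA-gated channels, had 1 count over the shlucif libraries and 69 over the Arf1-deficient libraries, a ratio of 34.5 with an exact 95% counting interval from 5.99 to 1380, and had the reads to be fitted only through the latter. None fell at the threshold, and 1 did without shArf1-2 replicate 2 or without shArf1-2 replicate 3.

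Of 14 factors that have been described at the promoters of the cluster or of Chrnb2, 10 were fitted, 5 rose and 3 fell, beside 31.6% and 32.9% of all fitted genes. Their median log2 fold change was 0.18. Rest, which encodes a repressor of neuronal genes, fell from 4.75 ± 0.764 FPKM to 2.32 ± 0.282 and 2.20 ± 0.166 (log2 fold change -1.13, SE 0.103, adjusted p = 1.48e-08 by edgeR). Sox10 and Pou3f1 had no count in any library. The part of these factors in the subunit levels was not tested.

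**Figure D4:**
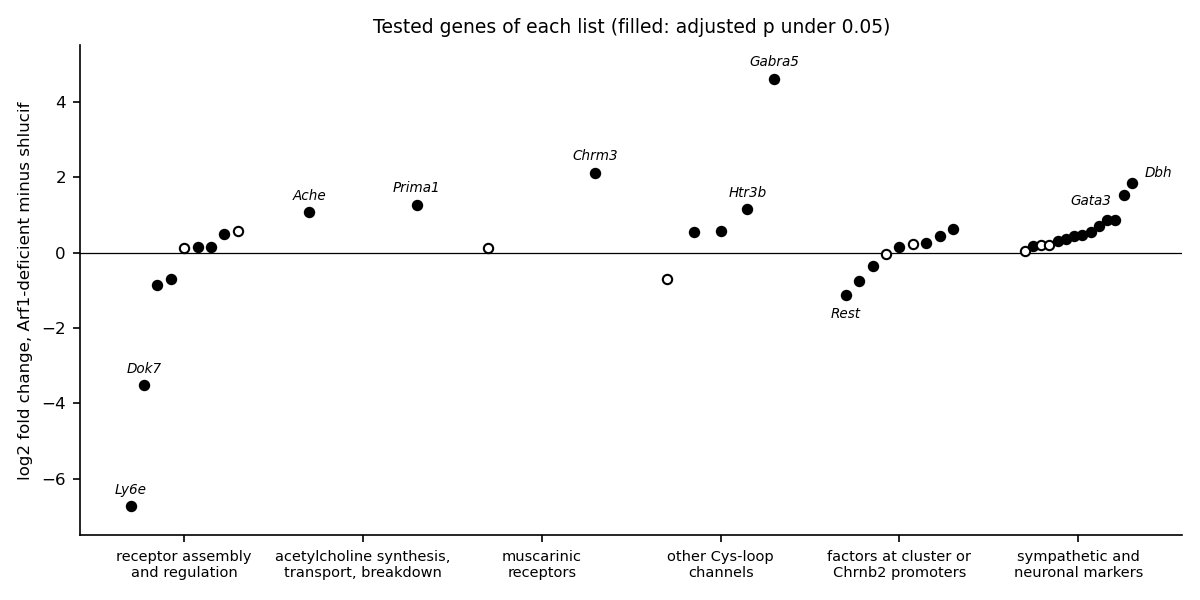
Log2 fold change of Arf1-deficient against shlucif cells (vertical axis) for the fitted genes of 6 lists that are reported here (horizontal axis), filled where the edgeR adjusted p was under 0.05, with names at an absolute log2 fold change of at least 1. Ache, Prima1, Chrm3 and Htr3b lie above 1, Rest at -1.13, Dok7 at -3.52 and Ly6e at -6.73, and the fitted height of Gabra5 rests on 1 count in shlucif.

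Markers of other cells moved with the groups and are given here beside the subunits. Of the sympathetic and neuronal markers, 12 of 15 fitted genes rose and none fell, beside 31.6% and 32.9% of all fitted genes, with a median log2 fold change of 0.46. Among the larger were Dbh, which encodes the enzyme that makes noradrenaline (0.728 ± 0.0468 FPKM to 3.48 ± 0.821 and 2.05 ± 0.463), and Gata3, a factor of sympathetic neurons (1.49 ± 0.359 FPKM to 5.08 ± 0.507 and 3.93 ± 0.176), with adjusted p by edgeR of 2.93e-05 for Dbh and 2.55e-07 for Gata3. All 13 fitted macrophage genes fell, but each had the reads to be fitted only through shlucif. The filter thus favoured a fall, and their number cannot be weighed against the 32.9% of all fitted genes called lower. It was 0 when at least 10 counts were required in every library, which left all 13 out. Their median log2 fold change was -7.74, with Spi1, Itgam, C1qb and C1qc set to a bound of 3 counts over the Arf1-deficient group. Those 4 genes had no count in that group. Cd68, a lysosomal protein of macrophages, had 2837 counts over the shlucif libraries and 27 over the Arf1-deficient libraries. In bulk RNA, fewer cells of a type and less RNA per cell cannot be told apart. These markers separate the same libraries that the subunits separate, so their part in the subunit differences from shlucif cannot be told apart from that of the hairpin. In the comparison of the hairpins the macrophage markers were near 0 on both sides. Their sum was 0.715 to 1.27 CPM with shArf1-1 and 0.720 to 1.18 with shArf1-2. Among the 15 fitted sympathetic and neuronal markers, 9 passed between the hairpins, beside 14.4% of all fitted genes. Snap25 was higher with shArf1-2 (log2 difference 0.40, adjusted p = 9.27e-06 by edgeR), and the others that passed, Dbh and Gata3 among them, were lower. Their part in the hairpin differences of the subunits was not tested.

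Markers of skeletal muscle were checked because Chrnb1, Chrna1 and Dok7 belong to the end plate. The defining factors Myod1, Myog and Myf5 had at most 2 counts in any library. Of 10 genes 2 were fitted, of which 1 fell and 1 rose, beside 32.9% and 31.6% of all fitted genes. Des, which encodes a muscle intermediate filament, fell (1.27 ± 0.308 FPKM to 0.372 ± 0.0898 and 0.418 ± 0.0669, log2 fold change -1.75, SE 0.241, adjusted p = 3.47e-06 by edgeR). Myh3, which encodes embryonic myosin, stood at 44.1 ± 0.739 FPKM in shlucif, 55.8 ± 2.62 with shArf1-1 and 55.3 ± 0.438 with shArf1-2. It rose by 0.27 on the log2 scale (SE 0.0477, adjusted p = 6.38e-05 by edgeR). Of 6 fibroblast genes 3 were fitted and 1 fell, beside 32.9% of all fitted genes called lower. It was Col1a1, a fibrillar collagen (0.858 ± 0.113 FPKM to 0.144 ± 0.0421 and 0.396 ± 0.115, log2 fold change -1.71, SE 0.336, adjusted p = 0.000289 by edgeR). Col1a1 was also higher with shArf1-2 than with shArf1-1 by 1.41 (adjusted p = 0.00229 by edgeR). Dcn (0.45, adjusted p = 0.197 by edgeR) and Pdgfra (-0.25, adjusted p = 0.125 by edgeR) missed the threshold against shlucif. Their part in the level of Chrnb1 was not tested.

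The genes around the cluster differed far less than Chrna3, which was chosen for its rise in this contrast. Within 500 kb on either side the reference annotates 29 other genes, of which 18 were in the table and 13 were fitted. Their log2 fold changes ran from -0.89 to 0.99 with a median of 0.38, and 7 rose and 1 fell, beside 31.6% and 32.9% of all fitted genes. On the Chrna5 side the nearest in the table were Psma4, AY074887 and Hykk. Psma4, a proteasome subunit whose end lies 22849 bases from the cluster, rose by 0.38 on the log2 scale (SE 0.0608, adjusted p = 2.38e-05 by edgeR). AY074887 had at most 2 counts. Hykk, which encodes hydroxylysine kinase, had 11 counts in each shlucif library and 15 to 34 in the Arf1-deficient libraries (log2 fold change 0.99, SE 0.338, adjusted p = 0.0149 by edgeR). On the Chrnb4 side they were Ube2q2, Fbxo22 and Nrg4. Ube2q2, a ubiquitin-conjugating enzyme 100074 bases away, had a log2 difference of 0.09 (SE 0.0967, adjusted p = 0.444 by edgeR). Fbxo22, a ubiquitin ligase subunit, rose by 0.38 (SE 0.0880, adjusted p = 0.000817 by edgeR). Nrg4, a growth factor of the neuregulin family, had 12 to 35 counts in shlucif and 6 to 17 in Arf1-deficient libraries and fell by 0.89 (SE 0.378, adjusted p = 0.0458 by edgeR), a call that was lost in 13 of the 17 other settings in which it was fitted, with a log2 fold change of -0.41 (adjusted p = 0.448) without shlucif replicate 2.

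**Figure D5:**
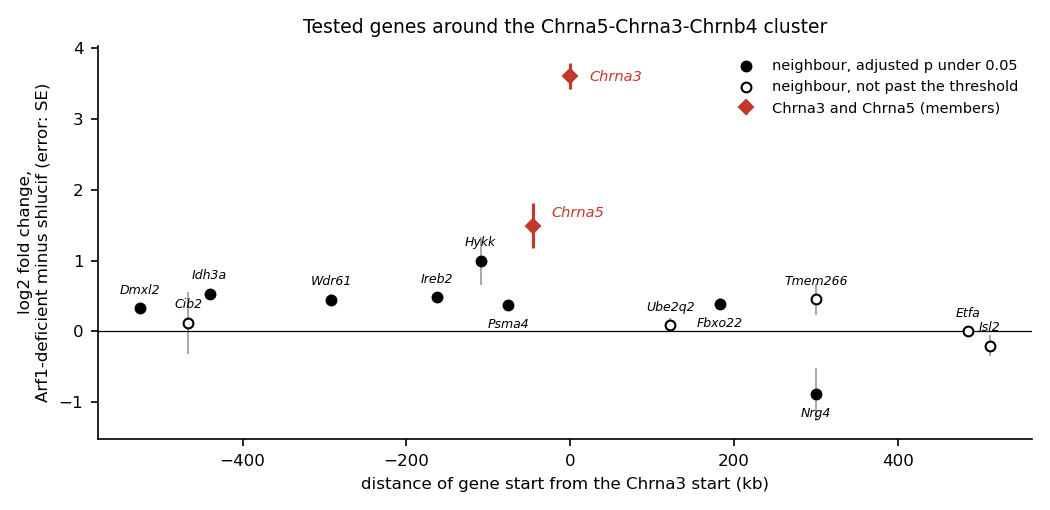
Log2 fold change of Arf1-deficient against shlucif cells with its SE for the 13 fitted genes within 500 kb of the cluster and for Chrna3 and Chrna5, against the distance of the gene start from the Chrna3 start in kb. Filled circles passed an edgeR adjusted p of 0.05. The estimates of Chrna3 at 3.60 and Chrna5 at 1.49 lie above those of the neighbours, which reach 0.99 at Hykk. The SE bars of Chrna5 and Hykk overlap, and Chrna3 was chosen for its rise in this contrast.

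Taken over all 9 libraries, the pattern of Chrna3 was closest to that of 5 genes outside the family. Likeness was measured as the Euclidean distance between log2 CPM values centred on the shlucif mean, which is set mainly by the size of the difference from shlucif. Arpp21, which encodes a cyclic-AMP-regulated phosphoprotein of neurons, was nearest at a distance of 0.967, with 2 to 4 counts in shlucif and 33 to 60 in Arf1-deficient libraries. Adgrf4, an adhesion receptor, followed at 1.00 with 6 to 12 and 106 to 238 counts. Ffar3, a receptor for short-chain fatty acids, stood at 1.17, and since it had no count in shlucif and 103 in the Arf1-deficient libraries its level was at least 17.2-fold higher there, taking 3 counts over the shlucif group as the floor. Galnt5, a glycosyltransferase of mucin-type glycans, stood at 1.53 and Prr15 at 1.79. Ffar3 and Galnt5 had at most 1 count in any shlucif library, and Prr15 had 1 to 4. All 5 genes had the reads to be fitted only through the Arf1-deficient libraries. By the same measure Chrna5 ranked 234 of 12447 genes, Chrna7 342, Chrnb2 994 and Chrnb1 11603, the same order as that of their log2 fold changes against shlucif, the values the members were chosen on.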

How the data were processed

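Poly(A) RNA of 9 N2a libraries was sequenced after random priming, and per the labels the reads were set against build mm10. The aligner and the counting settings are not given in the sources used here. The deposited table gives for each gene the count of reads and the FPKM per library, and the authors computed FPKM as count per listed length and library total, which was checked by recomputation (largest relative gap 1.9e-07). Columns named shArf2 with a number were taken as the shArf1-2 libraries of that number, 8 lines of overflow text were left out, and coordinates come from GENCODE M21 and RefSeq (GRCm38), matched by identifier or symbol, because the table's own start sites mostly differ from that build. The table's coordinates were not used.

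From the deposited counts, genes were filtered by expression (filterByExpr), scaled by TMM and tested with the edgeR 4.0.16 quasi-likelihood test in R 4.3.3, with Benjamini-Hochberg adjustment over all 12448 genes. The groups were fitted as Arf1-deficient against shlucif, each hairpin against shlucif and the hairpins against each other. The fit was tested on simulated data. Alternatives were DESeq2 1.42.0, limma 3.58.1 on log2(FPKM + 1) and log2(FPKM + 0.1), other scalings and filters, a replicate block and leaving out each library. Library totals ran from 11182479 to 15594615 counts, and no 2 libraries of a group agreed within sampling noise. Counting intervals cover counting error only. The named genes were the 7 members, Arf1, list genes past an adjusted p of 0.05 with an absolute log2 fold change of at least 1, other nicotinic subunits with at least 3 counts in some library, the 3 nearest genes in the table on each side of the cluster, and the 5 genes nearest to Chrna3 in pattern. A few more (Adar, Myh3, Th, Snap25, Dcn, Pdgfra, Sox10, Pou3f1, undetected subunits and muscle factors) were named after their values were seen. The members and gene lists were chosen with earlier results of these data known. Values of some listed genes are not reported here.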

Additional observations from a re-analysis of the deposited data

Results flagged for a closer look

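The values of 3 members stood out because the change against shlucif differed between the hairpins by edgeR's test of that difference, each expressed as the log2 change with shArf1-2 minus that with shArf1-1. For Chrna3 it was -0.46, for Chrna7 -0.56 and for Chrnb2 -0.23, with adjusted p of 6.79e-07, 0.000657 and 0.0189, and all 3 libraries with shArf1-2 lay below all 3 with shArf1-1 in FPKM for each gene. The cause of these differences was not tested.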

How the results depend on the processing

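The hairpin differences of Chrna3 and Chrna7 kept their direction and stayed past the threshold in every alternative run, from -0.49 to -0.42 and from -0.65 to -0.45. That of Chrnb2 missed the threshold with limma on log2(FPKM + 1) (-0.20, adjusted p = 0.0786) and on log2(FPKM + 0.1) (-0.21, adjusted p = 0.0818), and ran from -0.29 to -0.18 when single libraries were left out (adjusted p up to 0.133 in edgeR). That of Chrna5 ran from -0.041, without shArf1-2 replicate 2, to 0.36, and that of Chrnb1 from 0.37, with limma on log2(FPKM + 1), to 0.85. Genes past the threshold between the hairpins numbered 1798 and ran from 1159 to 1977 when single libraries were left out (higher 570 to 1008, lower 580 to 990), with the lowest totals without shArf1-1 replicate 1 (1159) and without shArf1-2 replicate 1 (1194), and limma on log2(FPKM + 0.1) gave 601 lower genes. The cause of these shifts was not tested. Same-numbered libraries did not deviate together (9 correlations from -0.0822 to 0.0941), and the fit with a replicate block gave -0.46 for Chrna3, -0.56 for Chrna7 and -0.23 for Chrnb2, with 1809 genes past the threshold. Adar changed sign with library size scaling (0.056), limma on log2(FPKM + 1) (0.052) or log2(FPKM + 0.1) (0.056), and ran from -0.046 to 0.027 when single libraries were left out. With log2(FPKM + 1) the changes of low members were smaller, such as 0.50 for Chrna5, as the pseudocount sets. The low counts of Chrna5, Chrnb4 and Chrna4 limit what can be said of them.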
